A study of Mus musculus with 18 samples.

Results

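The genes of the eukaryotic translation initiation factors were examined in mouse oocytes at metaphase II of meiosis (MII). A gene was a member when its symbol began with Eif1 to Eif6, leaving out the eIF2 kinases, the eIF4E-binding proteins, Eif4e1b, Eif4enif1 and pseudogenes. The rule used names and no measured value. It gave 47 genes of 55471 gene IDs, after 9 regulators and 10 pseudogenes had been left out of 66 matching symbols. They fell into 11 factors or factor groups, plus Eif1ad and Eif2c5, which carry such names without being classical factors (Eif2c is an older series of Argonaute names, and Eif2c5 is a long noncoding RNA in RefSeq). The series holds 18 samples of sperm, oocytes and blastocysts in 7 groups, and the values here come from the 3 oocyte libraries labelled wild type (WT) and the 3 labelled Isca2 -/- (KO). ISCA2 works in mitochondria, where iron-sulfur clusters are built. The strain, the age of the females, the number of oocytes in a library and the way KO oocytes were obtained are not given in the sources used here. The shared protocol describes hormone-primed Isca2+/- females mated with Isca2+/- males to collect embryos, and does not mention unfertilised oocytes. Nothing in the labels ties a replicate to an animal of its own, so the p-values measure the spread between these libraries, which may be technical.

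Initiation factors bring the first transfer RNA, the small ribosomal subunit and the messenger RNA together. eIF2 carries the initiator transfer RNA to the small subunit and is recharged with GTP by eIF2B. eIF1, eIF1A, eIF3 and eIF5 act on the small subunit during scanning for the start codon. The cap of the messenger is bound by eIF4E, which joins the scaffold eIF4G and the helicase eIF4A, and eIF5B brings in the large subunit. Full-grown oocytes and eggs make almost no new RNA, and their protein output is set largely by which stored messengers are translated, so a transcript level here describes a stored pool and not the amount of factor protein.

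Sequencing depth was 17792157 to 30240350 expected counts a library. The targeted gene, Isca2, had 14, 11 and 152 counts in the WT libraries and 53, 56 and 120 in the KO libraries. It was therefore not lower in the libraries labelled KO (edgeR log2 fold change 0.59 ± 0.89 SE, adjusted p = 0.907). When WT replicate 3, described below, was left out, it was 2.48 ± 0.55 (SE), higher in the libraries labelled KO, with adjusted p = 0.0969 in edgeR, 0.344 in limma-voom and 0.00822 in DESeq2, which called it. Which part of the gene the allele removes is not given in the sources used here, and WT and KO below mean the labels. All 11 oocyte markers were at 1 TPM (a gene's share of all transcripts, scaled per transcript length) or more in every library. WT replicate 3 stood apart. Its summed level of 12 macrophage and immune markers was 1807 TPM against 9.63 to 13.7 TPM in the other 5, with 11 of the 12 at 1 TPM or more. Its oocyte markers differed as well, with a sum of 10460 TPM against 6152 to 7591 TPM in the other 5. They did not move together: Zp2 had 1498 TPM there against 69.8 to 398 TPM, and Dazl 1043 TPM against 1203 to 1355 TPM. The summed level of 14 granulosa and cumulus markers ran from 46.1 to 61.5 TPM in the WT libraries and from 68.96 to 170 TPM in the KO libraries, with 1 to 9 of the 14 at 0 in a library. Cyp19a1, at 28.4 to 39.0 TPM in every library, made up much of the WT sums. Gja1 had 4.52, 0.17 and 0.05 TPM in WT and 16.8, 50.1 and 51.1 TPM in KO. Over the 10 tested markers of this list the 6-library median log2 fold change was 3.21. Only Cyp19a1 was negative (-0.07), and edgeR called 0. DESeq2 called Inhbb higher (adjusted p = 3.1e-07), which limma-voom did not (0.795). The part of the immune or the granulosa and cumulus transcripts in the differences below was not tested. Fewer cells of a type cannot be told apart from less RNA per cell in such bulk libraries.

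Messengers of ribosomal proteins and of several translation factors are known for a terminal oligopyrimidine tract, a C at the first transcribed base followed by a run of C or T, through which their translation is controlled. Every start listed for a gene in the RefSeq promoter table (GRCm38.p6) was searched on the gene's own strand. The search was for a C followed by at least 4 bases that are C or T, beginning within 2 bases of the listed start. A gene counted when any of its listed starts matched, so genes with more listed starts had more chances to match. For a gene with a match, the first matching start is shown. The table holds 38 of the 47 members. The sequences below show the members with the longest uninterrupted tracts among those expressed, then Eif3b and Eif4g1, and then, for contrast, the pair of most abundant members, which lack it. Each runs from 10 bases before the listed start to 20 bases from it, with the tract in capitals. The capitals start at the qualifying C nearest to the listed start, and C or T bases before it stay in lower case.

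Eif3f (chr7:108934405-108934434, plus strand): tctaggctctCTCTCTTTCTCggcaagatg
Eif2s3x (chrX:94212632-94212661, minus strand): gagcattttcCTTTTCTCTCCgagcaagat
Eif3b (chr5:140419295-140419324, plus strand): ggcgcgcggtgaCTTCTgggagtcggaagc
Eif4g1 (chr16:20672717-20672746, plus strand): gcgcagctccgCCCTCTgcgccggtcacgt
Eif5 (chr12:111538091-111538120, plus strand): cgacgtgcatgcgagccaatgacaagagaa
Eif2b1 (chr5:124579112-124579141, minus strand): tcgatttccggcgccgacgagtgacgccac

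Such a tract was present in 9 of the 38 members, or 23.7%, against 10.6% of the 27025 genes in the table and 21 of 61 cytosolic ribosomal protein genes, or 34.4%. Searched within 5 bases of the start it was in 26.3% of members, 21.2% of all genes and 47.5% of ribosomal protein genes. The excess of members over all genes was then much smaller. At the listed start alone the shares were 7.89%, 3.01% and 21.3%. Most ribosomal protein genes had no match at any of these settings, so a gene without a match may still carry a tract. The members with it were Eif2s3x, Eif2s3y, Eif2b5, Eif3b, Eif3f, Eif3l, Eif4g1, Eif1ad and Eif2c5. Eif1ad and Eif2c5 are not classical factors, and without them the share of members would be lower. Eif2c5 is also among those that match at the listed start alone. Counted from the listed start, the tract is 11 bases long in Eif3f, a core subunit of eIF3, and in Eif2s3x, the X-linked gamma subunit of eIF2, and in both C or T bases also stand just before the start. In Eif3b and Eif4g1 it is 5 and 6 bases long. The match is a description of a listed start, not always the outermost of the gene, and the start used in oocytes was not measured.

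The members with a tract were at low levels in these eggs. Over the 5 libraries other than WT replicate 3, the 7 tested members with a tract had mean levels from 1.41 TPM (Eif2b5) to 37.3 TPM (Eif4g1), and 0 of 7 reached 100 TPM. Of the 29 tested members in the table in which the search found none, 11 reached 100 TPM. Eif3e, Eif3i, Eif4e3 and Eif4g2, at 131 to 340 TPM over these 5 libraries, are missing from the table and were not searched. No such difference was seen over all tested genes, where 10.5% of those with a tract and 11.1% of those without reached 100 TPM. The difference among members was noticed in these data and was not tested.

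The members together made up 0.79% to 0.834% of all TPM in each of the 6 libraries. Their levels spread over more than 4 orders of magnitude on the TPM scale. By the mean of 6 libraries, 4 members were at 500 TPM or more, 11 between 100 and 500, 16 between 10 and 100, 13 between 1 and 10, and 3 (Eif2s3y, Eif5a2 and Eif2c5) under 1 TPM. In every library the highest member exceeded the lowest by at least 335-fold in eIF2B, 106-fold in eIF3 and 81.1-fold in eIF1 with eIF1A, as the plot of levels by library shows.

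**Figure D1:**
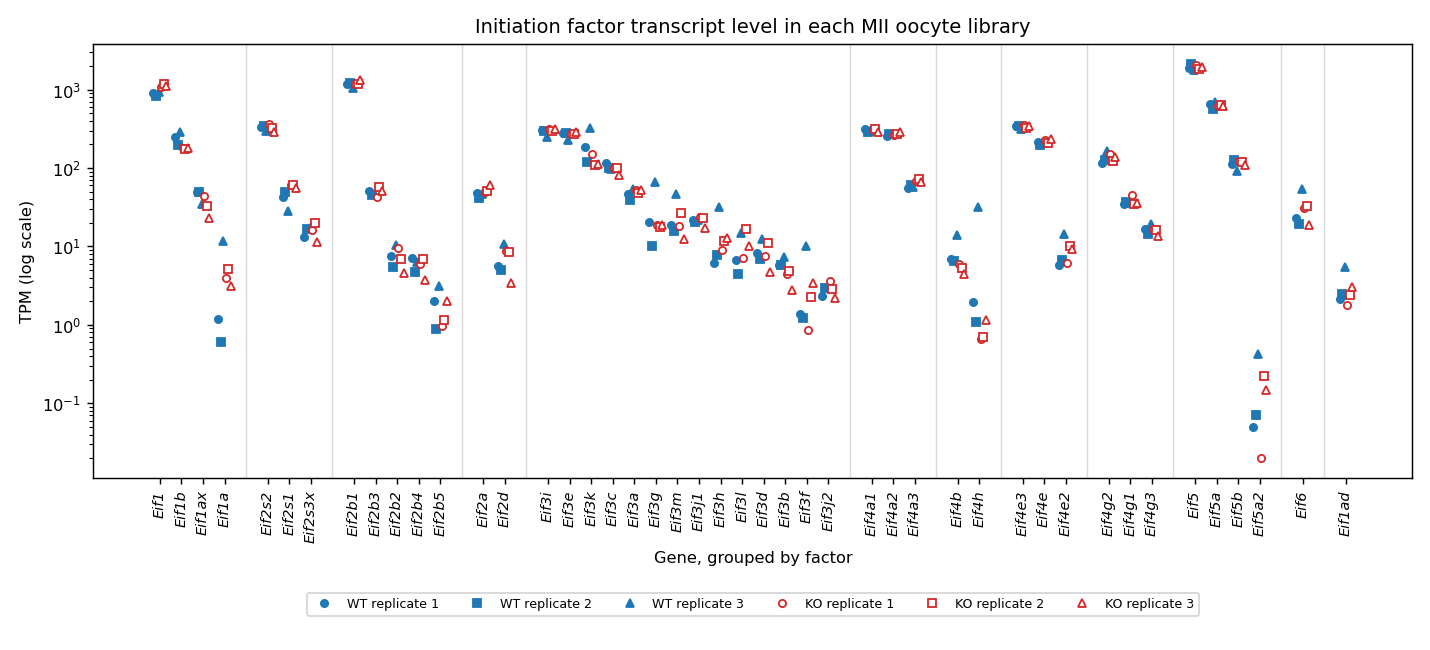
Level of each tested member in each oocyte library, in TPM on a log axis, with genes grouped by factor and ordered by mean level within a group. Filled blue marks are WT and open red marks KO, with the shape giving the replicate. Eif5, Eif2b1 and Eif1 lie highest, most other subunits of eIF2B and eIF3 lie far below, and the WT replicate 3 triangle is high for Eif4h, Eif1a and Eif3f.

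Ordered by the median level of their members, the factors ran from eIF5 with eIF5A and eIF5B (372 TPM) through eIF4A (271 TPM), eIF4E (214 TPM) and eIF1 with eIF1A (125 TPM) down to eIF4G (37.0 TPM), eIF2 (32.7 TPM), eIF6 (29.97 TPM), eIF2A with eIF2D (28.3 TPM), eIF3 (22.2 TPM), eIF2B (7.40 TPM) and eIF4B with eIF4H (6.74 TPM). The range of this median over the 6 libraries was 342 to 392 TPM for the eIF5 group, 256 to 285 TPM for eIF4A, 199 to 233 TPM for eIF4E and 101 to 161 TPM for eIF1 with eIF1A. These 4 do not overlap, so their order was the same in every library. From eIF4G down to eIF3 the ranges of neighbours overlap (34.3 to 44.9 TPM for eIF4G, 22.8 to 40.4 TPM for eIF2, 18.8 to 54.7 TPM for eIF6, 23.4 to 32.0 TPM for eIF2A with eIF2D and 12.8 to 39.3 TPM for eIF3), and their order does not hold beyond the spread. The eIF2B median, at 4.52 to 10.5 TPM, was below that of eIF3 in every library. For eIF4B with eIF4H the median ran from 2.82 to 23.0 TPM, the highest value being WT replicate 3, where it was above that of eIF2B, and its level without that library was 3.49 TPM. By the sum over members the eIF5 group also led, with 32.0% to 35.7% of all member TPM. In spite of its low median eIF2B held 13.8% to 16.8% of the member TPM, nearly all of it from Eif2b1, and eIF1 with eIF1A held 13.7% to 17.3%.

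Among the factors that open and close initiation, Eif5, which makes eIF2 hydrolyse its GTP at the start codon, was the most abundant member. It had 1899, 2135 and 1774 TPM in the WT libraries and 2069, 1845 and 1965 TPM in the KO libraries, and ranked 63rd of 13680 tested genes. Eif5a, whose hypusine-bearing protein acts mainly in elongation and termination, had 656, 560 and 694 TPM in WT and 621, 629 and 621 TPM in KO. Both genotypes overlap for each gene. Eif5b, the GTPase of subunit joining, had 113, 125 and 91.4 TPM in WT and 121, 120 and 110 TPM in KO. The paralog Eif5a2 was nearly silent, at 0.05, 0.07 and 0.43 TPM in WT and 0.02, 0.22 and 0.15 TPM in KO, so Eif5a made up at least 99.9% of the pair in every library. Eif6, which keeps the large subunit from joining too early, had 23.2, 19.3 and 54.7 TPM in WT and 30.9, 33.0 and 18.8 TPM in KO, with the highest value in WT replicate 3.

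The eIF2B complex showed the steepest imbalance between subunits that the protein complex holds in equal number. Eif2b1, the regulatory alpha subunit, had 1173, 1196 and 1040 TPM in WT and 1191, 1163 and 1315 TPM in KO, the 112th highest level among tested genes. Eif2b3, the gamma subunit, had 50.5, 45.9 and 47.0 TPM in WT and 42.6, 57.7 and 51.4 TPM in KO. Eif2b2 (beta) and Eif2b4 (delta) lay between 3.77 and 10.5 TPM in every library. The catalytic epsilon subunit Eif2b5 was lowest of the 5 in 6 of 6 libraries, at 2.03, 0.88 and 3.10 TPM in WT and 0.96, 1.16 and 2.01 TPM in KO. Eif2b1 therefore took 93.96% to 95.5% of the eIF2B TPM and exceeded Eif2b5 by 335-fold to 1359-fold. Its excess appeared in every library of both genotypes.

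The substrate of eIF2B was less uneven. Eif2s2, the beta subunit of eIF2, led with 331, 343 and 299 TPM in WT and 367, 327 and 292 TPM in KO. Eif2s1, the alpha subunit that stress kinases phosphorylate, had 42.8, 49.0 and 28.6 TPM in WT and 60.9, 61.2 and 55.8 TPM in KO. The KO libraries were all above the WT libraries for Eif2s1 in TPM but not in CPM (counts scaled to library size), and its edgeR log2 fold change was 0.40 ± 0.21 (SE, adjusted p = 0.767). TPM divides by the abundance-weighted transcript length, which for Eif2s1 averaged 3008 bases in WT and 2556 in KO, with overlapping groups. Eif2s3x had 13.3, 16.6 and 17.1 TPM in WT and 16.2, 19.6 and 11.5 TPM in KO. The Y-linked copy Eif2s3y, which an XX oocyte does not carry, had at most 6 counts in a library. The groups for Eif2s3x overlapped in TPM, whereas in CPM all 3 KO libraries (12.8 to 17.0) were below all 3 WT libraries (17.2 to 25.5), with a log2 fold change of -0.51 ± 0.23 (SE, adjusted p = 0.766). The abundance-weighted transcript length of Eif2s3x ran from 1276 to 2303 bases over the libraries. Eif2a and Eif2d encode initiation factors that can deliver transfer RNA without eIF2. Eif2a had 48.7, 41.7 and 46.1 TPM in WT and 49.1, 51.0 and 60.7 TPM in KO, so that the KO libraries were all higher, by 0.32 ± 0.14 (SE, log2, edgeR adjusted p = 0.766). Eif2d had 5.68, 5.07 and 10.8 TPM in WT and 8.64, 8.46 and 3.40 TPM in KO, with overlapping groups.

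eIF3, the largest initiation factor and the scaffold on the small subunit, was carried by few of its 14 genes. Eif3i, Eif3e, Eif3k and Eif3c were the highest 4 in 6 of 6 libraries and took 76.8% to 87.4% of the eIF3 TPM. Eif3i had 301, 299 and 250 TPM in WT and 312, 298 and 314 TPM in KO. Eif3e had 282, 279 and 226 TPM in WT and 273, 270 and 289 TPM in KO. For both the lowest value was WT replicate 3, and the KO values overlapped those of the other WT libraries. The large subunits that hold the complex together differed in level, with Eif3c at 81.4 to 114 TPM, Eif3a at 39.4 to 54.4 TPM and Eif3b at 2.78 to 7.41 TPM over all libraries. Eif3b had 5.86, 5.84 and 7.41 TPM in WT and 4.46, 4.92 and 2.78 TPM in KO. All 3 KO libraries were below all WT libraries, with a log2 fold change of -0.57 ± 0.26 (SE), which did not pass the test (edgeR adjusted p = 0.766). Eif3f was between 0.85 and 3.38 TPM outside WT replicate 3, and Eif3d, Eif3h and Eif3l were between 4.48 and 16.6 TPM there. The near-identical genes of the loosely bound j subunit, Eif3j1 (21.5, 20.7 and 22.0 TPM in WT and 23.9, 23.3 and 17.3 TPM in KO) and Eif3j2 (2.35, 2.94 and 3.02 TPM in WT and 3.64, 2.88 and 2.17 TPM in KO), had overlapping groups. They divide reads that match both, so the 86.8% to 90.2% share of Eif3j1 is uncertain.

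In the cap-binding group the paralogs were unequally stored. Eif4e3, an atypical cap-binding paralog, exceeded the canonical Eif4e in 6 of 6 libraries. Eif4e3 had 342, 339 and 315 TPM in WT and 355, 326 and 338 TPM in KO, and Eif4e had 214, 199 and 206 TPM in WT and 224, 209 and 233 TPM in KO. Eif4e2, a cap-binding protein known for repression, had 5.74, 6.76 and 14.4 TPM in WT and 6.09, 10.02 and 9.20 TPM in KO. Eif4e thus made up 37.7% ± 1.06 (SD, n = 3) of the 3 genes in WT and 38.9% ± 1.06 (SD, n = 3) in KO, a difference of 1.24 percentage points (two-sided exact permutation test, p = 0.3, 0.9 after adjustment over the 3 shares tested). With 3 libraries against 3 this test cannot give a p under 0.1. Among the scaffolds, Eif4g2, which lacks the eIF4E-binding site and serves cap-independent initiation, had 115, 126 and 166 TPM in WT and 151, 123 and 138 TPM in KO. It stood above Eif4g1 (34.3, 36.7 and 35.8 TPM in WT and 44.9, 34.9 and 35.8 TPM in KO) and Eif4g3 (16.9, 14.4 and 19.1 TPM in WT and 16.7, 16.0 and 13.6 TPM in KO) in every library. Its share of the 3 was 71.8% ± 2.98 in WT and 71.8% ± 1.54 in KO (SD, n = 3, exact permutation p = 0.9).

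The helicase paralogs Eif4a1 and Eif4a2 were close to equal, unlike the paralogs above. Eif4a1 had 313, 292 and 298 TPM in WT and 318, 318 and 285 TPM in KO, and Eif4a2 had 256, 275 and 273 TPM in WT and 261, 271 and 289 TPM in KO. Eif4a2 made up 47.1% ± 1.85 of the pair in WT and 47.1% ± 2.87 in KO (SD, n = 3, exact permutation p = 0.9). The exon junction helicase Eif4a3 was lower, at 54.8, 60.8 and 56.6 TPM in WT and 67.6, 71.7 and 66.8 TPM in KO. The KO libraries were all higher for Eif4a3 in TPM, although not in CPM, and its log2 fold change was 0.15 ± 0.12 (SE, edgeR adjusted p = 0.818). Its weighted transcript lengths, given below, were all shorter in KO. The activators of the helicase were scarce. Eif4b had 6.99, 6.48 and 14.2 TPM in WT and 5.96, 5.36 and 4.47 TPM in KO, and Eif4h had 1.98, 1.09 and 31.9 TPM in WT and 0.67, 0.71 and 1.17 TPM in KO.

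Eif1 and Eif1b encode near-identical forms of the factor that holds the scanning complex in its open state, and they stood on opposite sides of the genotype comparison. Eif1 had 894, 835 and 938 TPM in WT and 1081, 1180 and 1112 TPM in KO, with all KO libraries above all WT libraries. Eif1b had 248, 197 and 289 TPM in WT and 181, 175 and 179 TPM in KO, with all KO libraries below. The log2 fold changes were 0.31 ± 0.10 (SE, 95% interval 0.07 to 0.55) for Eif1 and -0.36 ± 0.13 (SE, 95% interval -0.67 to -0.04) for Eif1b. Neither passed the test over all genes (edgeR adjusted p = 0.766 for both, unadjusted p = 0.0173 and 0.0311). Without WT replicate 3 the values were 0.29 ± 0.09 and -0.26 ± 0.12 (SE), with the same directions and adjusted p = 0.235 and 0.456 in edgeR.

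The Eif1b share of the summed TPM of the pair was 21.7%, 19.1% and 23.5% in the WT libraries and 14.4%, 12.9% and 13.8% in the KO libraries. The means were 21.4% ± 2.22 and 13.7% ± 0.734 (SD, n = 3), and the groups did not overlap. This share was singled out after the separate values had been seen and carries no test. Reads that match both genes are divided between them by the authors' quantification, so the share depends on that division. The eIF1A genes were lower, with Eif1ax at 22.8 to 49.5 TPM over all libraries and Eif1a at 1.18, 0.61 and 11.6 TPM in WT and 4.0, 5.09 and 3.11 TPM in KO.

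**Figure D2:**
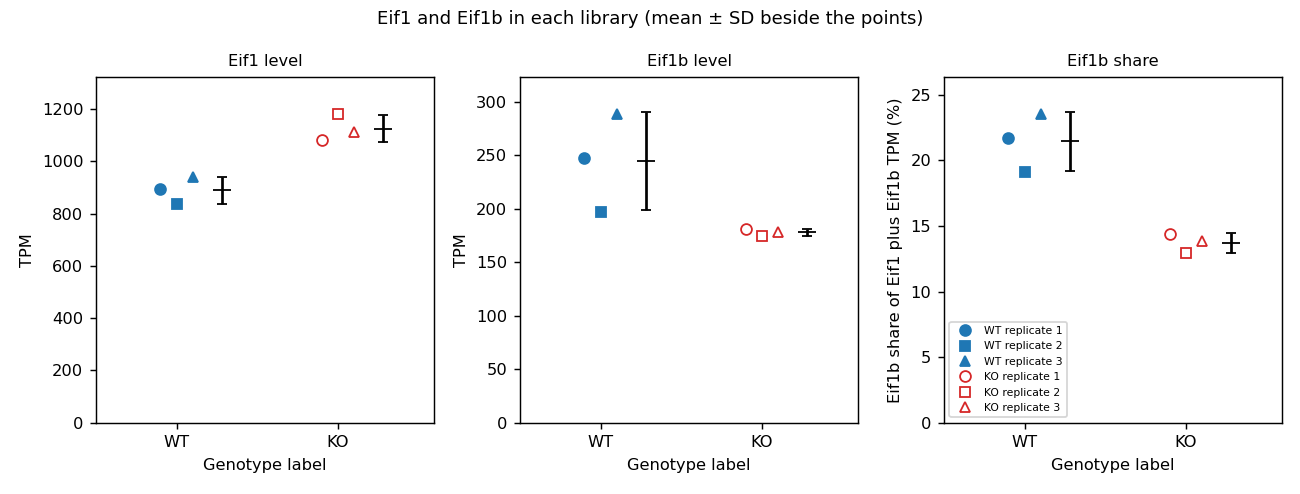
Levels of Eif1 and Eif1b in TPM and the share of Eif1b in their sum in percent, 1 point a library, with the mean and SD of each genotype label beside the points and axes starting at 0. Eif1 is higher and Eif1b lower in all 3 KO libraries, and the Eif1b share is 12.9% to 14.4% there against 19.1% to 23.5% in WT.

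Across the whole table no member was called between genotypes. Of 13680 genes tested by edgeR's quasi-likelihood test at an adjusted p under 0.05, 0 were higher and 2 lower in KO, which is 0% and 0.0146% of genes, and 0 of the 45 tested members were among them. DESeq2 called 81 genes higher and 20 lower (0.592% and 0.146%) and limma-voom 0 and 2 (0% and 0.0146%), again with 0 members. At an unadjusted p under 0.05 in edgeR, Eif1 was higher and Eif1b, Eif4b and Eif4h were lower, 1 and 3 of 45 members, against 2.89% and 3.3% of all genes. Eif2s3y and Eif2c5 had too few counts to be tested. The 95% interval of the difference lay within 1 log2 unit either way, that is within a doubling or halving, for 28 of the 45 tested members, among them Eif1, Eif2b1, Eif4e, Eif5 and Eif5a. For the other 17 the interval reached beyond that, so a difference of this size or more may be present and not detectable with these libraries.

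The median log2 fold change over the tested members was 0.03, with 24 positive and 21 negative, beside -0.04 over all genes tested. By factor the medians were 0.11 for eIF1 with eIF1A, 0.10 for eIF2, -0.11 for eIF2B, 0.18 for eIF2A with eIF2D, -0.15 for eIF3, 0.13 for eIF4A, 0.12 for eIF4E, -0.01 for eIF4G, 0.06 for the eIF5 group and -0.32 for Eif6. The pair Eif4b and Eif4h stood at -2.13. No median of a factor other than that pair and Eif6 was more than 0.18 from 0. The differences between factors were not tested.

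All 3 KO libraries were above all 3 WT libraries in CPM for 4 members (Eif1, Eif2a, Eif4a1 and Eif4e), and below them for 4 (Eif1b, Eif2s3x, Eif3b and Eif4b). The same held for 6.48% and 5.96% of all genes tested, shares near those of the members. In TPM the groups for Eif4a1, Eif4e and Eif2s3x overlapped, as their values above show. Without WT replicate 2, WT replicate 3 or KO replicate 2 the higher members were 10, 9 and 7 of 45, or 22.2%, 20% and 15.6%, against 13.4%, 15.3% and 10.1% of all genes. Without WT replicate 1, KO replicate 1 or KO replicate 3 they were 8.89%, 13.3% and 11.1%, against 9.87%, 11.7% and 9.55%. The lower members were 8.89% to 13.3% of 45 over these omissions, against 9.34% to 13.9% of all genes, and below the share of all genes in each.

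**Figure D3:**
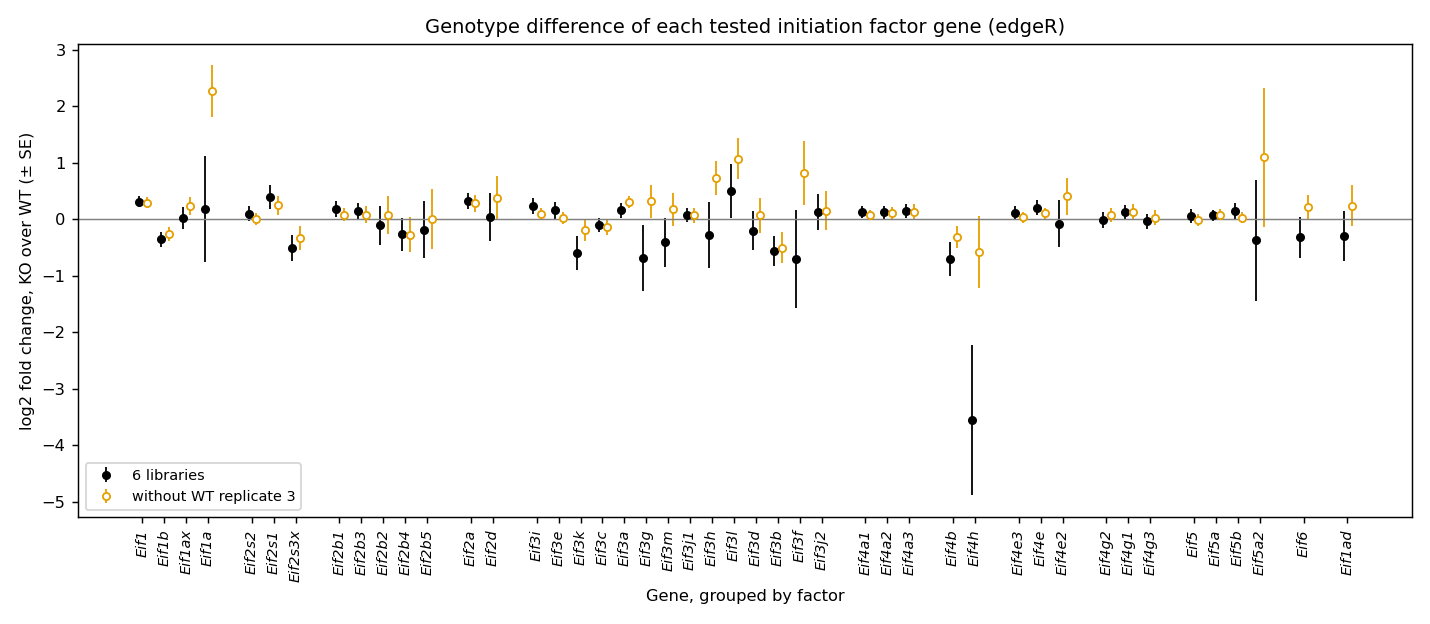
Fitted log2 fold change, KO over WT, of each tested member with its standard error, grouped by factor, for the 6 libraries (black) and without WT replicate 3 (orange). Most members lie near 0 in both. Eif4h moves from -3.56 to -0.58 and Eif1a from 0.19 to 2.27 when that library is left out.

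WT replicate 3 decided the largest fold changes. For Eif4h the log2 fold change was -3.56 ± 1.33 (SE) over 6 libraries and -0.58 ± 0.64 without that library. For Eif4b the values were -0.70 ± 0.30 and -0.32 ± 0.20 (SE). In that library 12 of the 45 tested members, or 26.7%, were more than 2-fold above the mean of the other 5, against 19.9% of all genes tested. They were Eif4h (28.3-fold), Eif3f (5.59-fold), Eif5a2, Eif1a (4.14-fold), Eif3g (3.92-fold), Eif3h (3.28-fold), Eif3m, Eif4b, Eif3k (2.37-fold), Eif1ad, Eif2b5 and Eif6. The excess lay with low members. Of the 20 members under 20 TPM in the other 5 libraries 10 exceeded 2-fold, against 25.8% of all genes that low. Of the 25 at 20 TPM or more 2 did, against 6.59% of all genes at that level. The bound of 20 TPM was set after the values had been seen.

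The subunits of eIF3 shifted unevenly in that library. Eif3g had 67.0 TPM there against 10.02 to 20.5 TPM in the other 5, Eif3h 31.5 against 6.22 to 13.0 TPM, Eif3m 47.1 against 12.3 to 26.4 TPM and Eif3k 321 against 110 to 183 TPM. Eif3i and Eif3e, the highest 2 in the other libraries, were lower in it than in any other. None of the eIF2, eIF2A with eIF2D, eIF4A, eIF4E or eIF4G genes tested exceeded 2-fold in it. The library is also the one with the immune markers and with the highest sum of oocyte markers. The part of either in these levels was not tested.

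**Figure D4:**
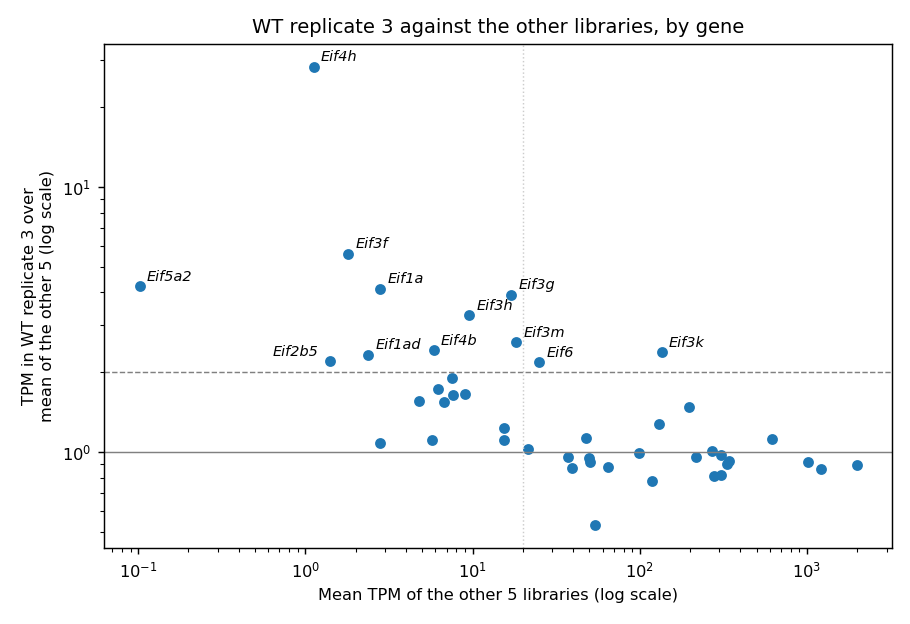
TPM in WT replicate 3 divided by the mean of the other 5 libraries, against that mean, for each tested member, both on log axes. The dashed line is a 2-fold excess and the dotted line the 20 TPM bound. The named genes are the 12 above 2-fold, and 10 of them lie left of the bound.

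Without WT replicate 3, edgeR called 81 genes higher and 11 lower in KO of 14122 tested (0.574% and 0.0779%), and limma-voom 5 and 6 (0.0354% and 0.0425%), again with 0 members. DESeq2 called 426 and 76 (3.02% and 0.538%), with 1 member, Eif1a, higher. Its log2 fold change was 2.27 ± 0.46 (SE) in edgeR, with adjusted p = 0.0686 in edgeR, 2.6e-04 in DESeq2 and 0.165 in limma-voom. The counts behind it were 54 and 18 in the other WT libraries and 168, 165 and 199 in KO, while WT replicate 3 had 504. At an unadjusted p under 0.05 in edgeR, 5 members were higher (Eif1, Eif1a, Eif3a, Eif3h and Eif3l) and 0 lower, against 7.68% and 3.89% of all genes. The median over members was 0.08, beside 0.01 over all genes, with 36 members positive and 9 negative. The share of all genes with a positive value was not counted, and the split was not tested. The median was then positive in place of negative for eIF2B (0.08), eIF3 (0.13), eIF4G (0.08) and Eif6 (0.21), and that of Eif4b and Eif4h was -0.45. In this comparison the tested granulosa and cumulus markers other than Cyp19a1 (-0.18) and Nr5a2 (-0.12) also had positive log2 fold changes, of which edgeR called 1 (Inhbb, adjusted p = 0.0260). DESeq2 called Inhbb (adjusted p = 4.0e-05) and Inhba (0.00887), and limma-voom called neither (0.498 and 0.573). The part of these granulosa and cumulus markers in the members' values was not tested.

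The deposited files also give the mean transcript length of a gene, weighted by the abundance of its transcripts, so a shift shows another mix of transcripts. This length varied by more than 1% over the libraries for 36 members. For 4 of these the KO libraries were all shorter than the WT libraries (Eif1, Eif4a3, Eif4g2 and Eif6), and for 0 all longer, against 5.84% shorter and 4.37% longer among all 9762 such genes. Eif4g2 had 3546, 3499 and 3329 bases in WT and 3277, 3223 and 3079 in KO. Eif4a3 had 1432, 1375 and 1509 bases in WT and 1268, 1243 and 1330 in KO. For Eif1 the mean was 1083 ± 31.0 bases in WT and 1014 ± 3.41 in KO, and for Eif6 it was 1456 ± 7.60 in WT and 1313 ± 75.8 in KO (SD, n = 3). The lengths are estimates of the authors' quantification and were not tested. With each library left out in turn, 5 to 9 of the 36 were shorter, against 9.98% to 11.6% of all such genes, and 0 to 2 longer, against 7.76% to 11.1%. The 9, or 25%, came without WT replicate 2, when 11.6% of all such genes were shorter.

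**Figure D5:**
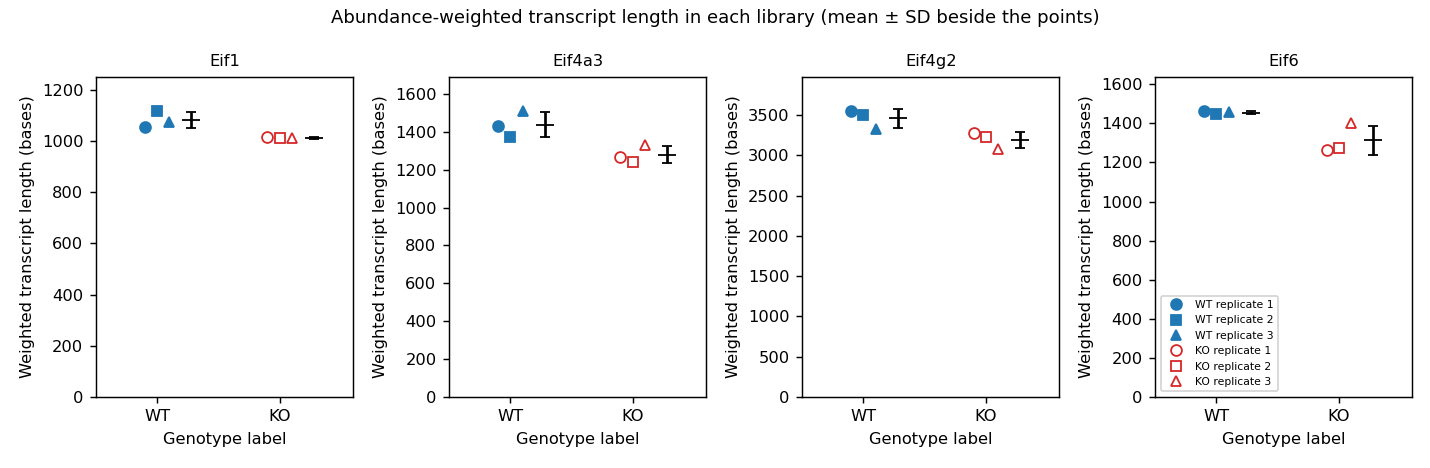
Abundance-weighted transcript length in bases, 1 point a library, with the mean and SD of each label beside the points and axes starting at 0. The 4 members shown are those whose length varies by more than 1% and whose genotype groups do not overlap. Each of the 4 is shorter in all 3 KO libraries, by 69.2 bases for Eif1 and 265 bases for Eif4g2 on average.

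The genes that control or assist initiation were read from the same fit, in lists chosen with earlier results of these data known. Over 6 libraries edgeR called 0 of 18 tested kinases, phosphatases and binding proteins of initiation control, 0 of 10 poly(A)-binding proteins and partners, 0 of 7 initiation helpers, 0 of 11 elongation and termination factors and 0 of 2 mitochondrial initiation factors. At an unadjusted p under 0.05 in edgeR there were 2 in the 5 lists, Cpeb3 and Pabpc1l, both lower, beside 3.3% of all genes tested. At an adjusted p under 0.05, DESeq2 and limma-voom called 0 in these lists over 6 libraries. The medians were -0.04, -0.29, -0.01, -0.20 and 0.10 on the log2 scale, in the same order. Cpeb3, a repressor of polyadenylation-dependent translation, had 11.5, 9.80 and 7.35 TPM in WT and 6.04, 5.97 and 5.14 TPM in KO, with groups that do not overlap (log2 fold change -0.47 ± 0.18 SE, adjusted p = 0.766). The log2 fold changes were -1.37 ± 0.56 (SE) for Pabpc1l, the oocyte form of the poly(A)-binding protein, (-0.85 ± 0.48 without WT replicate 3), and -1.29 ± 0.56 for Paip2, which binds and restrains that protein. Paip2 was -0.25 ± 0.17 (SE) without WT replicate 3, where it had 306 TPM against 51.9 to 81.0 TPM elsewhere.

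Eif4ebp1, which blocks eIF4E from joining eIF4G, had 3.71, 3.83 and 16.8 TPM in WT and 16.4, 23.9 and 29.2 TPM in KO. The groups overlap by the value of WT replicate 3, and the log2 fold change was 1.38 ± 0.62 (SE, edgeR adjusted p = 0.766). Without that library it was 2.49 ± 0.30 (SE) and the gene was called by edgeR (adjusted p = 0.0164) and DESeq2 (1.6e-11) but not by limma-voom (0.0634). Eef1a1, the factor that brings transfer RNA to the elongating ribosome, had 22.7, 23.2 and 318 TPM in WT and 60.1, 106 and 82.2 TPM in KO. Its log2 fold change was -0.58 ± 0.96 (SE) over 6 libraries and 1.76 ± 0.24 without WT replicate 3, when edgeR called it higher (adjusted p = 0.0186). These were the only calls of edgeR in the 5 lists without that library, 1 of 18 and 1 of 11, against the 0.574% of genes called higher. Ppp1r15b, which reverses the phosphorylation of eIF2, and Eif4ebp2 had log2 fold changes of -0.57 ± 0.30 and -0.75 ± 0.49 (SE) over 6 libraries, and -0.27 ± 0.25 and -0.07 ± 0.36 without WT replicate 3. Among the helpers Bzw2 (0.61 ± 0.36), Denr (0.17 ± 0.22) and the ribosome-recycling factor Abce1 (-0.21 ± 0.29) had the smallest p-values, among the elongation and termination factors Eef1e1 (-0.21 ± 0.13), the release factor Etf1 (-0.22 ± 0.15) and Eefsec (-0.20 ± 0.14). The mitochondrial factors were Mtif2 (0.41 ± 0.19) and Mtif3 (-0.21 ± 0.15), all as log2 fold changes ± SE and with adjusted p of at least 0.766 in edgeR.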

How the data were processed

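Per the file headers, each oocyte file gives abundance-weighted and effective transcript lengths, expected counts, TPM and FPKM per Ensembl gene ID, as the authors estimated them. The deposited FPKM values were not used. The submitters' processing notes name RSEM 1.3.1, STAR 2.6.1c, DESeq2 1.42.1, Trim Galore 0.4.5 and the GRCm38 build. Because the annotation release and strand setting are not given in the sources used here, overlapping genes could not be told apart, and RSEM divides reads that match several genes. A symbol was found for 55144 IDs. Sperm and blastocyst samples were not analysed here.

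Expected counts, as deposited by the authors, were rounded to whole numbers and tested over all genes with edgeR 4.0.16 (R 4.3.3): quasi-likelihood test, filterByExpr, TMM factors, genotype as the only term, Benjamini-Hochberg adjustment, threshold 0.05. DESeq2 1.42.0 and limma-voom 3.58.1 were alternatives, with other scaling, filters, log2(TPM + 1) and log2(TPM + 0.1) values, a replicate block and each library left out. Levels between genes were compared only in deposited TPM. CPM used TMM-scaled library sizes. Standard errors came from the fold change and F statistic.

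The members, lists and the fit without WT replicate 3 were chosen with earlier results of these data known. Values in every library were given, by rule, for the highest 2 members and the one with the smallest p in each factor, all paralog sets, the 5 smallest p-values, members called with or without WT replicate 3 and members whose groups do not overlap, and the 3 genes with the smallest p-values in each related list were named, mostly by their fold changes. Other members named were chosen after their values were seen. Expected counts of a library limit low members such as Eif5a2, with 2 to 43 counts.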

Additional observations from a re-analysis of the deposited data

How the results depend on the processing

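Members called stayed at 0 in every fit run but DESeq2 without WT replicate 3, which called 1. That combination and its limma-voom counterpart were chosen after seeing the data. Over all genes, the counts called higher and lower were 81 and 20 by DESeq2, 3 and 4 with log2(TPM + 1), 7 higher with log2(TPM + 0.1), 5 and 4 with log2(TPM + 1) and no filter, 426 and 76 by DESeq2 without WT replicate 3, and 5 and 6 by limma-voom without it. Leaving out each library gave 0 to 81 higher and 1 to 11 lower, with 81 and 11 from the fit without WT replicate 3 and 1 lower without KO replicate 1, and 0 to 1 called in the initiation control and in the elongation lists. DESeq2 without WT replicate 3 called 1 in each of these lists.

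The median log2 fold change moved to 0.25 for eIF2 without a count filter (Eif2s3y then enters), to 0.028 for eIF4A with each of the 3 TPM fits, and for the eIF5 group to 0.00177 with library totals and to 0.020, 0.020 and -0.00154 with the TPM fits. With each library left out it ran from -0.21 to 0.26 for eIF1 with eIF1A, from -0.26 to 0.090 for eIF2B, from -2.48 to -0.45 for eIF4B with eIF4H and from 0.044 to 0.11 for the eIF5 group. The eIF1 with eIF1A median was negative without WT replicate 1 or 2, and the eIF2B median positive without WT replicate 3, KO replicate 1 or KO replicate 3. Members whose groups do not overlap numbered 4 to 10 of 45 higher, beside 9.55% to 15.3% of all genes. The lower ones numbered 4 to 6, beside 9.34% to 13.9%. Those with another length were 5 to 9 of 36 shorter, beside 9.98% to 11.6%, and 0 to 2 longer, beside 7.76% to 11.1%. Eif1a ran from -0.32 to 2.27, Eif6 from -0.55 to 0.21, Abce1 from -0.44 to 0.077, Denr from -0.018 to 0.27 and Eef1a1 from -1.06 to 1.76.

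Other reversals of direction were Eif6 (0.21 by DESeq2 and 0.17 by limma-voom, both without WT replicate 3), Abce1 (0.077 and 0.081, likewise), Denr (-0.011, -0.013 and -0.011 with the TPM fits) and Eef1a1 (0.39 by limma-voom, 0.57 with the replicate block, 0.52, 0.55 and 0.52 with the TPM fits, 1.76 and 1.71 by DESeq2 and limma-voom without WT replicate 3). The cause was not tested.

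As a mean over members in place of the median, levels were 315 TPM for eIF1 with eIF1A, 98.0 for eIF2, 249 for eIF2B, 70.9 for eIF3, 213 for eIF4A, 186 for eIF4E, 63.2 for eIF4G and 673 for the eIF5 group, since a few members hold most of each sum. Rescaled without mitochondrially encoded genes the medians were 287 TPM for eIF4A, 227 for eIF4E and 394 for the eIF5 group. Searched at the listed start alone, the tract was in 7.89% of members and 3.01% of all genes, and within 5 bases in 26.3% and 21.2%.

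Deviations from the genotype mean were correlated by 0.063, -0.111 and 0.0084 for equal replicate numbers, and by -0.133 to 0.134 for unequal ones. With 3 libraries a genotype, such values cannot show whether the numbers pair the libraries. The fit with the replicate block called 0 genes higher and 2 lower and 0 members.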

Other observations

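3 members lie on chromosome 12 with Isca2 (GRCm38.p6, 84773230 to 84775089). Eif2b2, the beta subunit of eIF2B (85219481 to 85226628), is 444 kb away, and its log2 fold change was -0.11 ± 0.34 (SE, edgeR adjusted p = 0.961), with 7.53, 5.43 and 10.5 TPM in WT and 9.46, 7.01 and 4.52 TPM in KO. Eif2s1 and Eif5 lie farther off, at 5886 and 26763 kb.

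21 members overlap another RefSeq gene and 10 a protein-coding one, among them Eif2a with Serp1, Eif4a2 with Rfc4, Eif4e3 with Gpr27, Eif5a with Gps2 and Eif5b with Rev1. Without the strand setting the reads of such pairs cannot be told apart. The 10 pseudogenes left out of the members summed to 8.65 to 14.9 TPM in a library, against 7899 to 8337 TPM for the members.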
